A study of Schmidtea mediterranea with 40 samples.

Results

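The RNA-binding proteins described here are the Piwi, Tudor, DEAD-box and DEAH-box families of the planarian *Schmidtea mediterranea*, together with 1 pumilio and 1 nanos contig. Members were the contigs whose best human match is described as piwi-like, tudor domain containing, a DEAD (Asp-Glu-Ala-Asp) or DEAH (Asp-Glu-Ala-His) polypeptide, pumilio or nanos homolog, and that summed to at least 400 reads over the 40 libraries. This gave 75 of the 28742 contigs in the count table: 3 Piwi, 6 Tudor, 43 DEAD-box, 21 DEAH-box, 1 pumilio and 1 nanos. A further 10 contigs matched by description but fell under the minimum. The nearest of these were matches to DDX6 (dd_35095) and DDX43 (dd_20870), with 284 and 369 reads, and the lowest members were 2 other DDX6 matches, dd_11802 with 419 reads and dd_34434 with 616. The choice used annotation and total counts, and no comparison between groups.

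Planarians replace their tissues from neoblasts, the dividing cells that include the stem cells of the adult. Piwi proteins bind short guide RNAs called piRNAs, which direct them against transposon and other transcripts. In mouse and fly germ cells they work in granules with Tudor proteins, which bind methylated arginines on Piwi, and with the DEAD-box helicase Vasa (DDX4 in human). Other DEAD-box and DEAH-box helicases unwind or remodel RNA during splicing, ribosome assembly, export, translation and decay, and pumilio and nanos proteins repress translation of bound mRNAs in germ cells. *smedwi-1*, here the contig annotated wi-1 (dd_659), is the usual marker of planarian neoblasts.

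The 75 members carried 44 different human symbols. DHX8 was the match of 9 contigs, DDX5 of 4, PIWIL1, DDX6, DDX41 and DDX47 of 3 each, and DDX4 and DDX17 of 2 each. The 3 Piwi members were annotated by planarian entries as wi-1, wi-2 (dd_756) and Piwi protein WI-3 (dd_1258). Of the 43 DEAD-box members, 25 had VASA-1 and 14 had VASA-2 as the nearest planarian entry, so that this entry does not single out a Vasa gene. Contigs with one human match can be paralogs or pieces of 1 transcript, and reads shared between near-identical copies could have been split, which leaves their single values uncertain. The deposited single-cell annotation placed only 3 members in a cluster, namely dd_659 in neoblasts and the DDX28 and DDX51 matches (dd_5591 and dd_12279) in gut.

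All animals were of the clonal asexual strain CIW4. They were fed dsRNA against *activin-2*, which encodes a TGF-beta family ligand, or against *unc-22* as the control, in 4 feedings over 14 days, and wounds were taken 7 days after the last feeding. There were 3 libraries per arm labelled 0, 6, 24 and 48 hours post amputation (hpa) at posterior-facing wounds and 4 per arm and orientation at anterior- and posterior-facing wounds labelled 18 hpa, with 5 wounds per replicate by the labels, while the text of the study gives fewer. The labels give no orientation at 0 hpa, which was posterior-facing by the study's methods. Nothing states that replicates were separate cultures, so p-values measure the spread between these libraries.

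The totals were 2524235 to 13381025 counted reads per library, with a median of 10533396, and the lowest was activin-2 RNAi 48 hpa replicate 3. Levels are TMM-normalised reads per 1000000 (RPM), in which 1 read corresponded to 0.0747 to 0.396 RPM. The targeted transcript *activin-2* (dd_3324) stood at 2.30 to 5.42 RPM with *activin-2* RNAi at labelled 0, 6, 24 and 48 hpa, against 30.5 to 59.5 RPM in their controls. At 18 hpa it did not separate the arms. Anterior-facing wounds had 24.0 to 85.0 RPM in the libraries labelled *activin-2* RNAi and 25.5 to 30.9 in control. Posterior-facing wounds had 3.45 to 65.3 RPM (mean 22.6, SD 29.0) against 31.9 to 43.1 (mean 37.5, SD 4.64). The lowest posterior-facing library labelled *activin-2* RNAi was thus as low as at the other labelled times. The highest was above every posterior-facing control library. Whether labels were exchanged or fed dsRNA added reads at 18 hpa was not tested. Differences at 18 hpa, and the part of the 18 hpa libraries in a mean over conditions, are therefore differences between labels. Transcripts of the wound-induced list had their lowest mean level at labelled 24 hpa and their highest, among the posterior-facing wounds, at labelled 48 hpa in both arms, so times are given as labelled. Libraries labelled 18 hpa also carry a different naming and number of replicates, and a batch and the time cannot be told apart for them. Summed over the 4 pharynx contigs, levels were 51.4 to 165 RPM in the libraries labelled *activin-2* RNAi at posterior-facing wounds of 18 hpa, against 0.69 to 1.74 in control. They also differed between libraries elsewhere, with 12.9 to 86.3 RPM in control and 18.0 to 161 in *activin-2* RNAi at labelled 24 hpa, and 0.451, 0.569 and 39.6 in control at labelled 0 hpa. At labelled 48 hpa *activin-2* RNAi replicate 2 had 119 RPM against 4.16 and 6.94 in the other 2 libraries and 0.716 to 1.67 in control. The part of these differences in the results below was not tested.

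The first question was whether *activin-2* RNAi changed these genes over the whole set of wounds. Averages were taken over the 6 labelled conditions. All 3 Piwi contigs, the TDRD1, TDRD9 and TDRD12 matches and both Vasa (DDX4) contigs were higher in the libraries labelled *activin-2* RNAi. Both contigs matched to the RNA sensor DDX58 (RIG-I in human) and 5 of the 9 DHX8 contigs were lower. Of the libraries labelled *activin-2* RNAi, 8 are from 18 hpa, where the target did not separate the arms. In these bulk samples fewer cells of a type and less RNA per cell cannot be told apart. The median over the members that rose was 0.13 on the log2 scale, and over those that fell -0.17. In a model of all 12 groups, 26 of 75 members passed an edgeR adjusted p of 0.05 over all contigs, 17 higher and 9 lower, where 27.8% of all 18350 contigs tested passed, 12.1% higher and 15.7% lower. The share of members called in either direction was therefore above that of all contigs but near it. More members were called higher than lower, while more of all contigs were called lower, and this contrast was not tested. The median over the members was 0.05 against 0.01 for all contigs. Scaled by library size only, 28 members rose and 6 fell, and the median of all contigs was 0.05. Without the 18 hpa libraries, 20 members were called, 16 higher and 4 lower, and 15 and 4 of these were also called over all 6 conditions. For these counts by library size only and without 18 hpa, the share of all contigs called is not given. They are therefore not read as results about the members.

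**Figure D1:**
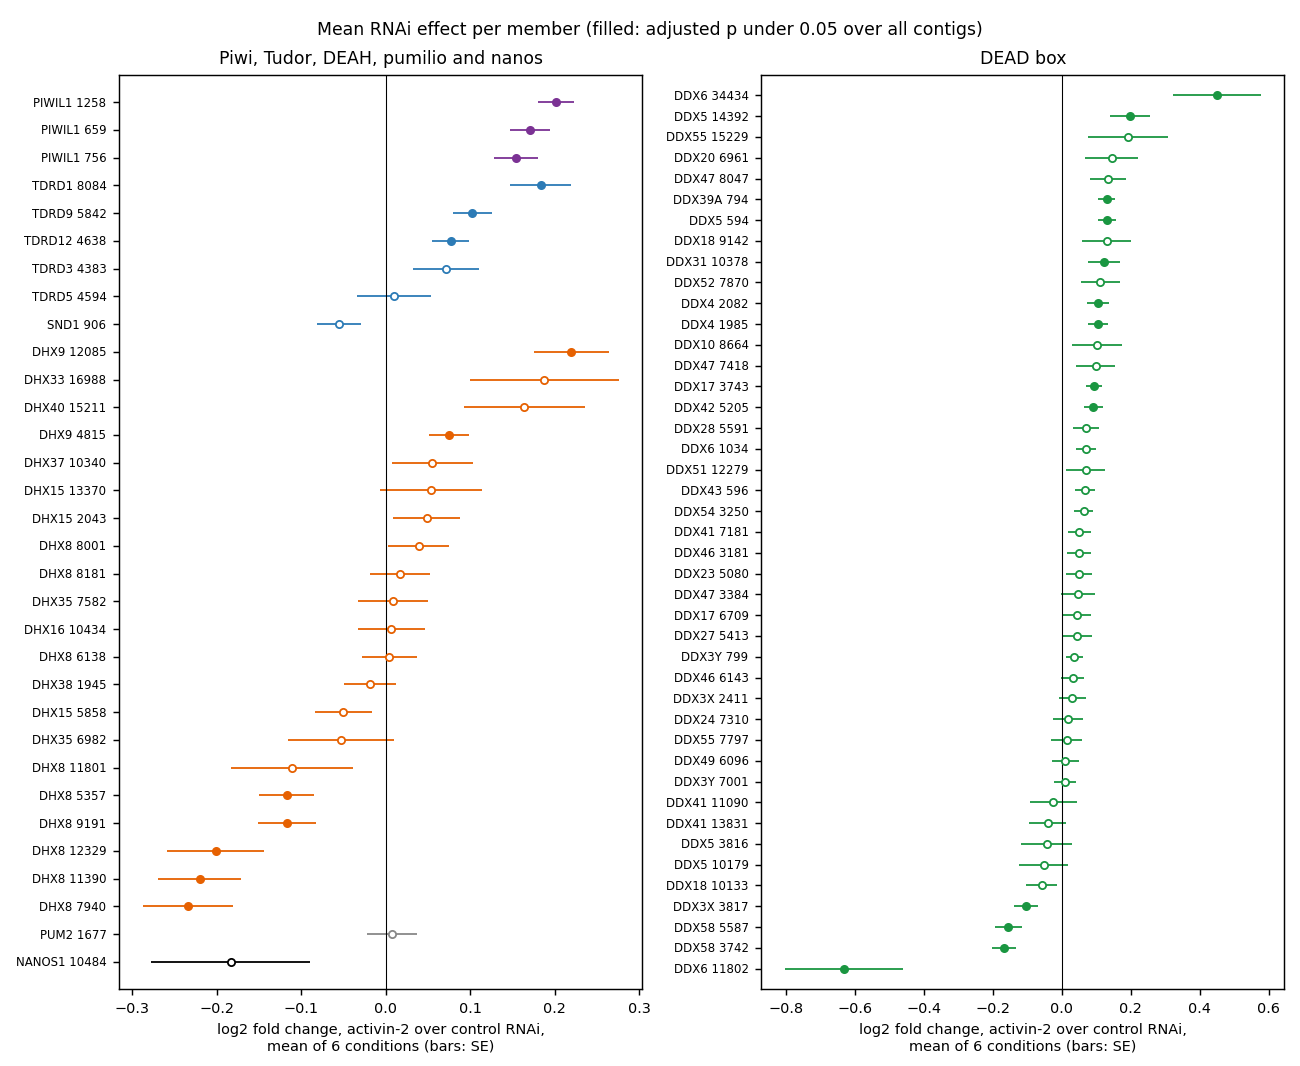
Mean log2 fold change of libraries labelled *activin-2* RNAi over control RNAi over 6 labelled conditions for each of the 75 members, by human match and contig number, with the SE as bars and filled points for an edgeR adjusted p under 0.05 (the 2 panels have different x axes). The 3 Piwi contigs lie between 0.15 and 0.20, and the DHX8 contigs spread from -0.23 to 0.04.

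Piwi contigs had the smallest p-values among the members. WI-3 (dd_1258) rose by 0.20 ± 0.0213 on the log2 scale (SE, adjusted p = 2.01e-09), *smedwi-1* by 0.17 ± 0.0238 (adjusted p = 6.19e-07) and wi-2 by 0.15 ± 0.0260 (adjusted p = 1.46e-05), all from edgeR with 40 libraries. Without the 18 hpa libraries the 3 values were 0.24, 0.19 and 0.18, and all 3 were called.

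At labelled 0 hpa, WI-3 had 759.6, 782 and 809.8 RPM in control and 951, 956 and 979 in *activin-2* RNAi. At labelled 48 hpa it had 741, 738 and 709 RPM in control and 879, 904 and 913 in *activin-2* RNAi. The arms did not overlap for WI-3 in any of the 6 conditions, and the 24 hpa difference of 0.26 ± 0.0756 (SE) was the only one of the 6 that passed the pairwise test (adjusted p = 0.0427), with 734, 714 and 688 RPM in control and 885, 794 and 851 in *activin-2* RNAi. That call ended with RLE normalization (adjusted p = 0.0502) and without any 1 of 5 libraries: without activin-2 RNAi replicates 1 or 3 the adjusted p was 0.0907 or 0.136, and without control replicates 1, 2 or 3 it was 0.0924, 0.185 or 0.0701.

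*smedwi-1* stood at 734, 739 and 774 RPM in control wounds labelled 0 hpa, and at 934, 963 and 950.1 with *activin-2* RNAi, a difference of 26.7% that missed the threshold (edgeR adjusted p = 0.0585). At labelled 6 hpa the arms overlapped, at 1018, 1028 and 1111 RPM in control and 1043, 1116 and 1001 in *activin-2* RNAi. At the anterior-facing wounds of 18 hpa, control libraries had 780.2, 735, 784 and 763 RPM and those labelled *activin-2* RNAi 872, 856, 845 and 825. The posterior-facing wounds had 799.5, 759, 782 and 768 RPM against 826, 857, 876 and 833. In both orientations every library labelled *activin-2* RNAi was above every control library (exact permutation test, two-sided, p = 0.0286 in each, the lowest value that 4 against 4 allow), although neither passed the test over all contigs. The largest spread was at labelled 48 hpa, where *activin-2* RNAi had 698, 856 and 738 RPM and control 660.1, 644 and 638.

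**Figure D2:**
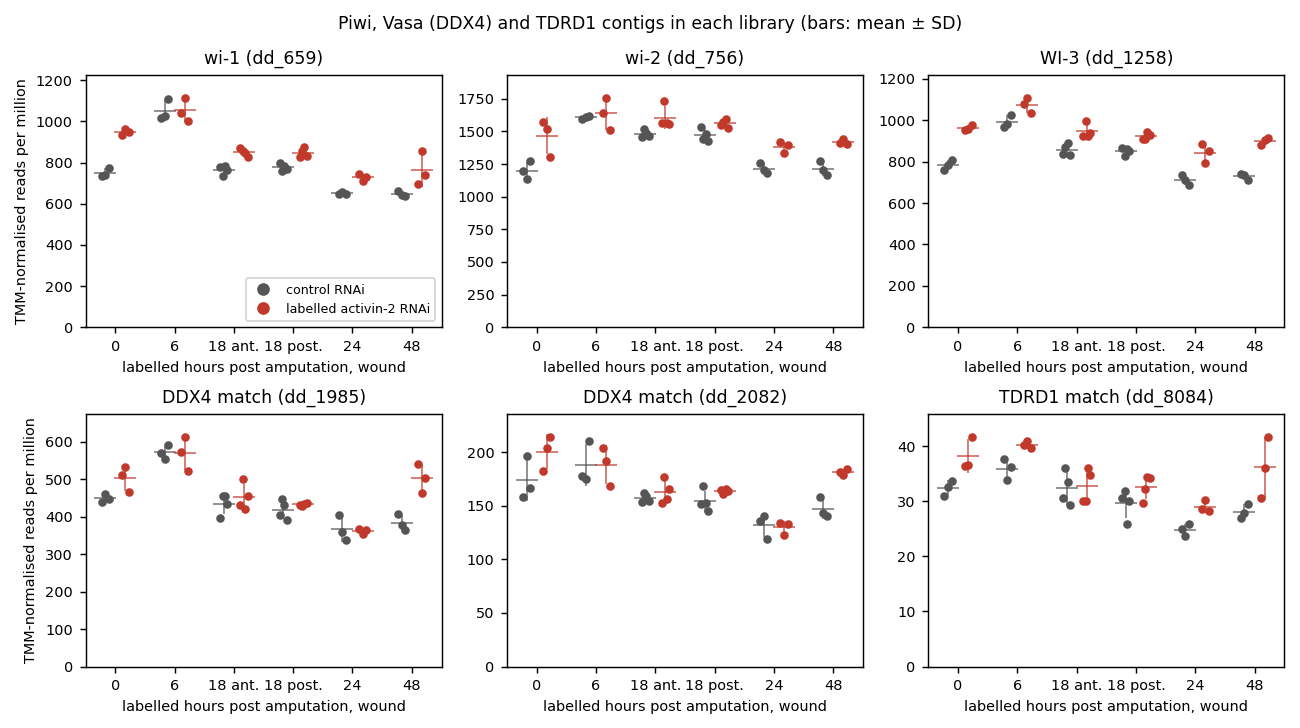
TMM-normalised reads per 1000000 of the 3 Piwi contigs, both DDX4 contigs and the TDRD1 contig in each of the 40 libraries, by labelled time and wound, with the mean and SD of each group. *smedwi-1* (wi-1) has its highest control level at labelled 6 hpa (1018 to 1111) and its lowest at labelled 48 hpa (638 to 660).

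Among the 6 Tudor members, 3 rose over the 6 conditions and none fell. The contig annotated Tudor-1, matched to TDRD1, which binds Piwi proteins in mouse germ cells, rose by 0.18 ± 0.0362 (SE, edgeR adjusted p = 1.44e-04). TDRD9 and TDRD12 matches, both helicase proteins that act on piRNAs in the mouse, rose by 0.10 ± 0.0231 (adjusted p = 7.19e-04) and 0.08 ± 0.0217 (adjusted p = 0.00656), and TDRD12 was not called without the 18 hpa libraries (adjusted p = 0.0781). TDRD1 at labelled 24 hpa stood at 24.9, 23.7 and 25.9 RPM in control and 28.5, 30.1 and 28.2 in *activin-2* RNAi, and at labelled 48 hpa at 26.9, 27.9 and 29.5 against 30.6, 36.1 and 41.7. Its sign was positive in all 6 conditions, and none of the 6 passed the pairwise test. The TDRD3, TDRD5 and SND1 matches had mean effects of 0.07 ± 0.0392, 0.01 ± 0.0443 and -0.05 ± 0.0261 and were not called. TDRD3 is a reader of methylated arginine and SND1 a Tudor nuclease. The family annotation of the TDRD3 contig (dd_4383) lists no Tudor domain.

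Of the 43 DEAD-box members, 9 rose and 4 fell. The 2 Vasa contigs dd_1985 and dd_2082 rose by 0.11 ± 0.0299 and 0.11 ± 0.0325 (adjusted p = 0.0069 and 0.0127). Their arms separated at labelled 48 hpa, where dd_1985 had 408, 378 and 365 RPM in control and 540.3, 463 and 502 in *activin-2* RNAi, a difference of 30.9% that missed the threshold (adjusted p = 0.0646). For dd_2082 the same wounds had 159, 143 and 140.1 RPM against 182, 179 and 184. At labelled 6 and 24 hpa their differences lay at most 0.02 below 0 on the log2 scale. The DDX39A match (dd_794), an mRNA export helicase, rose by 0.13 ± 0.0243 (adjusted p = 6.95e-05), and 1 of the 4 contigs matched to DDX5, a helicase of splicing and microRNA processing, rose by a like amount (dd_594, 0.13 ± 0.0261, adjusted p = 1.80e-04). A second DDX5 contig (dd_14392), DDX42 and DDX31 matches, a DDX17 contig (dd_3743) and a DDX6 contig of few reads (dd_34434) made up the other members that rose. The other 2 DDX5 contigs, dd_3816 and dd_10179, had means of -0.04 ± 0.0735 and -0.05 ± 0.0711.

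The 4 DEAD-box members that fell were the 2 contigs matched to DDX58, which senses viral RNA in human cells, 1 matched to DDX3X, a helicase of translation initiation, and the DDX6 contig dd_11802, matched to a helicase of mRNA decay granules and at or under 2.33 RPM in every library. dd_3742 fell by 0.17 on the log2 scale (SE 0.0346, adjusted p = 2.69e-04) and dd_5587 fell by 0.15 (SE 0.0395, adjusted p = 0.00272), and both had a negative sign in all 6 conditions. At labelled 6 hpa dd_3742 had 98.97, 92.9 and 94.1 RPM in control and 88.96, 86.4 and 70.5 in *activin-2* RNAi, and at labelled 48 hpa 109.8, 112 and 103 against 101, 94.4 and 94.6. The arms of dd_3742 did not overlap in either. Without 18 hpa, dd_3742 was still called and dd_5587 was not (adjusted p = 0.128). The DDX3X contig dd_3817 fell by 0.10 (SE 0.0338, adjusted p = 0.0193). That call ended without 18 hpa (adjusted p = 0.238) and with scaling by library size only (adjusted p = 0.199). The DDX6 contig dd_11802 had too few reads to be tested between the arms at labelled 0 hpa and at anterior-facing wounds of 18 hpa. At labelled 24 hpa and at posterior-facing wounds of 18 hpa it passed the filter through control. Without the filter its mean effect was -0.63 (edgeR adjusted p = 0.00636). It is counted among the members that fell, but its fall is not read as a result.

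Of the 21 DEAH-box members, 2 rose, 5 fell and 14 were not called. Both DHX9 contigs rose, dd_4815 by 0.07 ± 0.0241 (adjusted p = 0.017) and dd_12085 by 0.22 ± 0.0445 (adjusted p = 2.11e-04). Without the 18 hpa libraries dd_12085 was still called (edgeR adjusted p = 0.00161) and dd_4815 was not (adjusted p = 0.105). DHX9 is a nuclear helicase of double-stranded RNA. The family annotation of dd_4815 lists helicase domains, while that of dd_12085 lists none. The 5 DEAH-box members that fell were all matched to DHX8, a splicing helicase: dd_7940, dd_11390, dd_12329, dd_5357 and dd_9191, with means of -0.23, -0.22, -0.20, -0.12 and -0.12. They were named after their values were seen. Of the other 4 DHX8 contigs 1 was negative and 3 were positive, all between -0.11 and 0.04 and not called. Only dd_11390 and dd_9191 were also called without the 18 hpa libraries, and the others then had means of -0.13, -0.08 and -0.07. At labelled 24 hpa dd_11390 had 19.5, 19.8 and 18.8 RPM in control and 17.96, 17.6 and 13.8 in *activin-2* RNAi, and it was negative in all 6 conditions. The pumilio contig dd_1677 (PUM2) had a mean effect of 0.01 ± 0.0293 and the nanos contig dd_10484 (NANOS1) of -0.18 ± 0.0944, and neither was called.

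Each condition alone called few members, with 3 or 4 libraries per arm. Here and below, some counts are given without the share of all contigs. These are counts of positive signs, counts at an unadjusted p under 0.05 and counts under an alternative setting. They are not read as results about the members. At labelled 0 hpa 0 of 74 tested members were called by edgeR, where 4.22% of all contigs were. An unadjusted p under 0.05 was found for 10, and DESeq2 called 3. A positive sign was found for 63, and the median was 0.14 against 0.01 over all contigs. At labelled 48 hpa 0 of 75 were called (2.33% of all contigs), 13 had an unadjusted p under 0.05, DESeq2 called 2, 62 were positive and the median was 0.14 against 0.02. Without activin-2 RNAi replicate 2 the test at labelled 48 hpa called 10 members, all higher. That run kept the shallowest library, and the share of all contigs called in it is not given. The replicate left out is the one with 119 RPM of pharynx transcripts, and whether this had a part in the count was not tested. At labelled 6 hpa 0 of 75 were called (2.00% of all contigs), with 10 at an unadjusted p under 0.05, 0 by DESeq2 and a median of 0.02. At labelled 24 hpa 3 of 75 were called, 2 higher and 1 lower (12.5% of all contigs, 4.51% higher and 7.96% lower), with a median of -0.01.

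At labelled 24 hpa the 3 were WI-3, given above, the DHX9 contig dd_12085 and the DDX6 contig dd_11802. dd_12085 had 8.999, 9.34 and 9.29 RPM in control and 14.7, 11.95 and 13.3 in *activin-2* RNAi, a rise of 0.55 ± 0.127 (SE, edgeR adjusted p = 0.0161) that was not called without activin-2 RNAi replicate 1 or 3 or control replicate 2 (adjusted p = 0.0554, 0.0588 and 0.0665). dd_11802 had 2.10, 1.15 and 1.55 RPM in control and 0.698, 0.603 and 0.512 in *activin-2* RNAi, and fell by 1.35 on the log2 scale (SE 0.375, adjusted p = 0.0355). It held few reads in every library and entered this comparison through the group where it is high, with 3 of 3 control and 0 of 3 *activin-2* RNAi libraries at or over the minimum of 0.887 reads per 1000000, and a contig that passes only through 1 group had to differ. Without the filter its adjusted p was 0.0346, and its adjusted p was 0.0578, 0.101 or 0.140 without activin-2 RNAi replicate 1, 2 or 3 and 0.130 without control replicate 1. RLE normalization called 1 member higher and 2 lower here, and scaling by library size only called 17 higher and 1 lower, with the median of all contigs at 0.16. Without activin-2 RNAi replicate 1, control replicate 1 or control replicate 2, 1 member was called, without activin-2 RNAi replicate 3 there were 0, and without control replicate 3 there were 7.

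**Figure D3:**
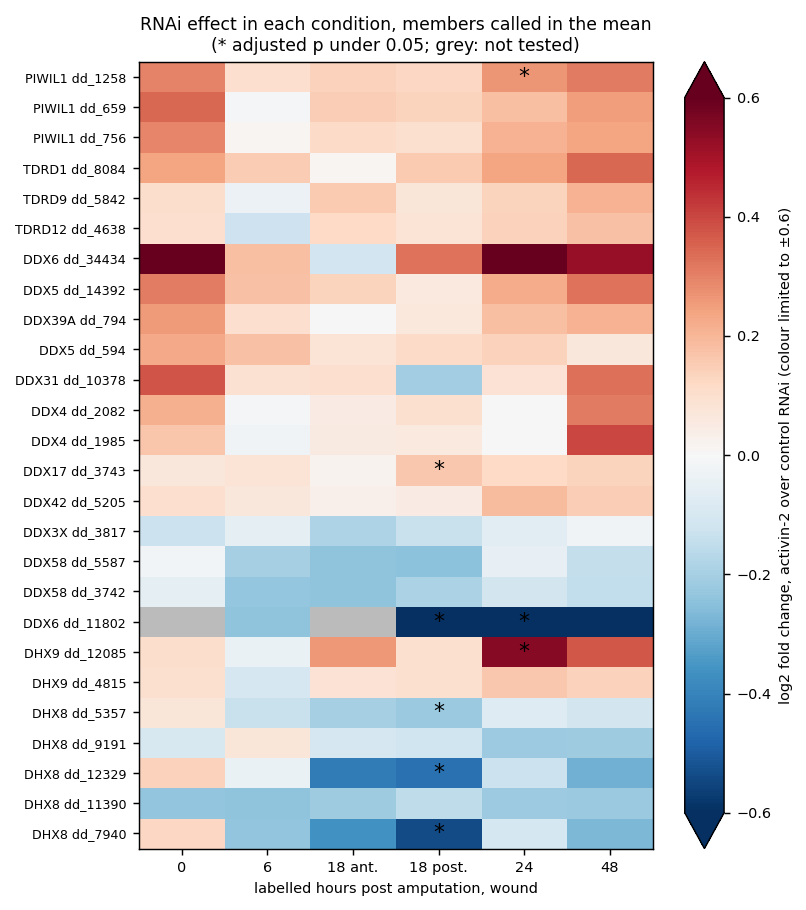
Log2 fold change of libraries labelled *activin-2* RNAi over control RNAi in each of the 6 labelled conditions for the 26 members called in the mean, as colours limited to 0.6 either way, with asterisks for an adjusted p under 0.05 in that condition and grey for contigs not tested. WI-3 (dd_1258) is positive in all 6 columns and the DHX8 contig dd_11390 negative in all 6.

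The test of whether the difference between the labelled arms varied among the 6 conditions called 2 of 75 members, where 5.04% of all contigs were called. The first was a DDX18 contig (dd_10133, adjusted p = 0.0328), matched to a ribosome assembly helicase and named after its values were seen. The second was a DHX15 contig (dd_5858, adjusted p = 0.0465), matched to a splicing helicase. No Piwi or Tudor member was called by this test. The count was 0 without any 1 of activin-2 RNAi 6 hpa replicate 2, posterior-facing 18 hpa replicate 2, 24 hpa replicate 2 or 48 hpa replicate 3, or of control 0 hpa replicate 1, 6 hpa replicates 2 or 3 or 24 hpa replicate 1. It was 1 without any 1 of 16 other libraries, 4 without activin-2 RNAi 6 hpa replicate 3 and 8 without activin-2 RNAi 48 hpa replicate 2. dd_10133 was higher in *activin-2* RNAi at labelled 6 hpa, with 21.4, 23.3 and 19.95 RPM against 19.5, 18.4 and 17.9, and lower at labelled 24 hpa, with 17.8, 14.8 and 17.3 against 23.6, 18.9 and 18.4.

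At the posterior-facing wounds of 18 hpa 6 of 75 members were called (8.93% of all contigs, 3.15% higher and 5.78% lower), 1 higher and 5 lower in the libraries labelled *activin-2* RNAi. The 5 lower members were 3 of the 9 DHX8 contigs (dd_7940, dd_12329 and dd_5357), 1 of the 3 DHX15 contigs (dd_5858) and the DDX6 contig dd_11802, and were named after their values were seen. dd_7940 had 39.6, 32.6, 34.3 and 34.7 RPM in control and 25.9, 27.7, 23.5 and 19.95 in the libraries labelled *activin-2* RNAi, and fell by 0.54 on the log2 scale (SE 0.0918, edgeR adjusted p = 0.0014). dd_5858 had 104, 93.9, 92.9 and 90.4 RPM against 73.95, 74.6, 80.5 and 75.7, and fell by 0.31 (SE 0.0567, adjusted p = 0.00222). Neither pair of groups overlapped, and both calls held in every alternative run. dd_12329 fell by 0.45 (SE 0.113, adjusted p = 0.0212), a call that ended without activin-2 RNAi replicate 3 or 4 or control replicate 1 (adjusted p = 0.0611, 0.0599 and 0.0509). dd_5357 fell by 0.22 (SE 0.0595, adjusted p = 0.0279), and was not called without any 1 of the same 3 libraries or control replicate 3 (adjusted p = 0.0724 to 0.0923), nor with library size only (adjusted p = 0.111). The DDX6 contig dd_11802 fell by 1.31 (SE 0.320, adjusted p = 0.0174), from 1.74, 1.94, 2.33 and 1.21 RPM to 0.322, 0.609, 0.792 and 1.12, and was not called without activin-2 RNAi replicate 2 or control replicate 3 (adjusted p = 0.0551 and 0.0722). It too entered through the group where it is high, with 4 of 4 control and 1 of 4 libraries labelled *activin-2* RNAi at or over the minimum, and without the filter its adjusted p was 0.00954. The DDX17 contig dd_3743 was the 1 member called higher (0.16 ± 0.0478, adjusted p = 0.0497), and its adjusted p was above 0.05 without any 1 of the 8 libraries. Leaving out 1 library gave 3 to 8 calls, the lowest without activin-2 RNAi replicate 3 or 4 or control replicate 1 or 3. RLE normalization gave 0 higher and 5 lower, and library size only 4 and 4.

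**Figure D4:**
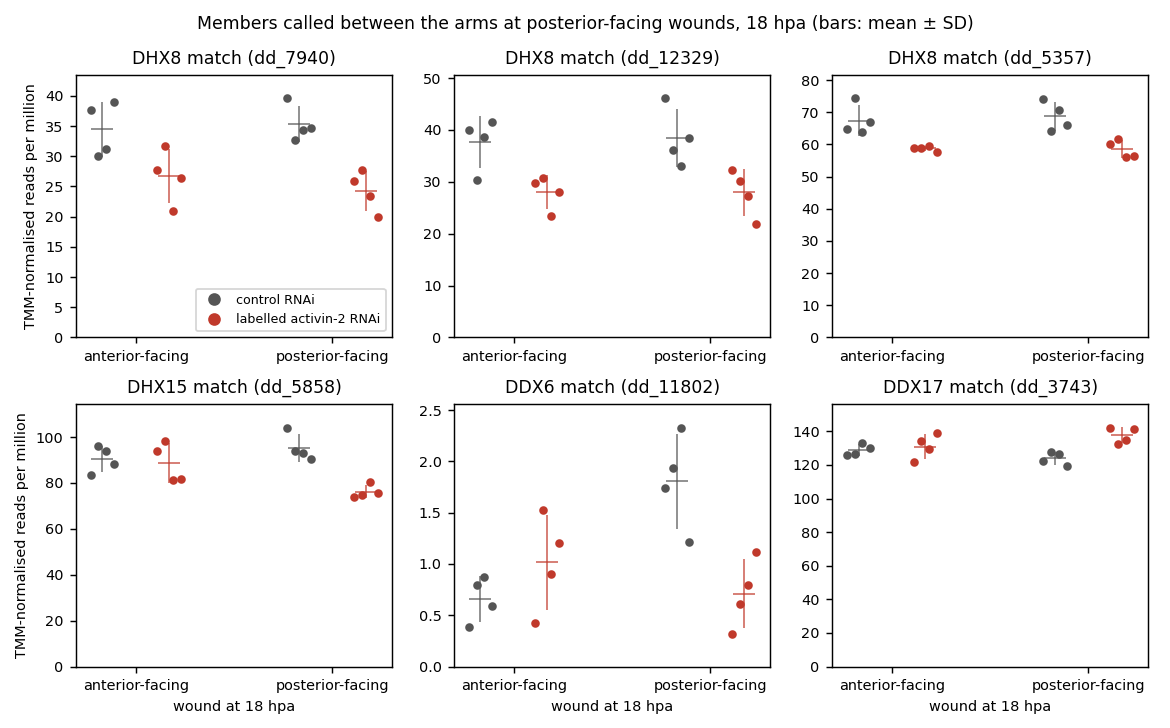
TMM-normalised reads per 1000000 of the 6 members called between the arms at posterior-facing wounds labelled 18 hpa, in each library of both wound orientations, with the mean and SD of each group. The DHX15 contig dd_5858 lies at 74.0 to 80.5 in posterior-facing wounds labelled *activin-2* RNAi, below the other 3 groups, which lie between 81.2 and 104.

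At the anterior-facing wounds of 18 hpa 0 of 74 tested members were called (2.60% of all contigs), with 14 at an unadjusted p under 0.05, 1 lower by DESeq2 and a median of 0.02. dd_7940 had 37.6, 30.1, 31.1 and 39.1 RPM in control and 27.7, 31.8, 20.9 and 26.4 in the libraries labelled *activin-2* RNAi, and dd_12329 had 40.1, 30.3, 38.6 and 41.5 against 29.8, 30.8, 23.4 and 28.1. The arms overlapped for both. The interaction of labelled arm and wound orientation called 0 of 75 members by edgeR (0.0941% of all contigs). An unadjusted p under 0.05 was found for 5, and DESeq2 called 0. A difference between the orientations in the contrast of the labelled arms was therefore not detectable for any member.

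Between wound orientations in the libraries labelled control, 6 of the 75 members were called, all higher at posterior-facing wounds. Of all contigs 15.4% were called, 8.19% higher and 7.24% lower. The 6 members were SND1 and the DDX3Y, DDX20, DDX18, DDX55 and DDX6 matches (dd_799, dd_6961, dd_9142, dd_15229 and dd_11802). The DDX6 contig dd_11802 had 4 of 4 posterior-facing and 0 of 4 anterior-facing libraries over the minimum of the filter. SND1 (dd_906) had 583, 632, 638 and 610.1 RPM at anterior- and 721, 755, 729 and 727 at posterior-facing wounds, a rise of 0.26 ± 0.0528 (SE, adjusted p = 0.00475). Without control posterior-facing replicate 3 or 4, 3 members were called, and with library size only 4 were higher and 1 lower. The Piwi contigs were not called, with differences of -0.01 to 0.03.

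In the libraries labelled *activin-2* RNAi, 8 of 74 tested members were called between the orientations (18.4% of all contigs, 9.51% higher and 8.88% lower), 6 higher and 2 lower at posterior-facing wounds. Of these, the largest rise was that of the nanos contig dd_10484, which had 1.61, 1.41, 2.07 and 2.23 RPM at anterior- and 3.54, 3.75, 3.33 and 3.36 at posterior-facing wounds (0.92 ± 0.195, adjusted p = 0.00449). In the libraries labelled control it had 1.53, 2.47, 2.04 and 3.05 RPM at anterior- and 3.37, 3.37, 3.19 and 3.20 at posterior-facing wounds. The control groups did not overlap either (exact permutation test, two-sided, p = 0.0286), though the test over all contigs gave an adjusted p of 0.112. DDX20 and DDX18 contigs (dd_6961 and dd_9142) were called higher in both arms, by 0.50 ± 0.108 and 0.42 ± 0.113 in control and 0.50 ± 0.0975 and 0.38 ± 0.0942 in the libraries labelled *activin-2* RNAi. DDX20 acts in the complex that assembles splicing particles. The 2 lower members were the DHX16 contig dd_10434 and the DHX15 contig dd_5858, both matched to splicing helicases. Without activin-2 RNAi posterior-facing replicate 1, 2 or 3 there were 5, 5 or 3 calls, and with library size only 4 were higher and 5 lower.

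The last question was how the members changed with labelled time after amputation, within each arm against its libraries labelled 0 hpa, which the 3 comparisons of an arm share. In control wounds labelled 6 hpa, 3 of 75 members rose and none fell (0.821% of all contigs were called, 0.258% higher and 0.563% lower): *smedwi-1* and the DDX17 and DDX23 matches dd_6709 and dd_5080. *smedwi-1* rose from 734, 739 and 774 to 1018, 1028 and 1111 RPM (0.49 ± 0.0796, SE, edgeR adjusted p = 0.0188). wi-2 and WI-3 differed by 0.42 ± 0.0847 and 0.34 ± 0.0775 and missed the threshold (adjusted p = 0.0513 and 0.0779). Of the 75 members, 23 had every library labelled 6 hpa above every control library labelled 0 hpa, and 3 had every one below, where 10.1% and 9.19% of all contigs did. Calls at this time rested on single libraries, with 0 members called without control 0 hpa replicate 1 or control 6 hpa replicate 1 or 3, and 10 by DESeq2. In *activin-2* RNAi, 0 of 74 tested members were called between labelled 6 and 0 hpa (1.13% of all contigs), with 9 at an unadjusted p under 0.05 and 0 by DESeq2, and 6 without activin-2 RNAi 6 hpa replicate 3. For *smedwi-1* that difference was 0.14 ± 0.0746.

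Between labelled 24 and 0 hpa, the Vasa and TDRD1 contigs fell in both arms. dd_2082 had 159, 196 and 167 RPM at labelled 0 and 136, 140.0 and 119 at labelled 24 hpa in control, and 182, 204 and 214 against 133, 123 and 133 in *activin-2* RNAi. It fell by 0.41 on the log2 scale in control (SE 0.101, adjusted p = 0.0117) and fell by 0.62 in *activin-2* RNAi (SE 0.0825, adjusted p = 6.57e-04). The differences of dd_1985 were -0.31 and -0.47 and those of TDRD1 -0.40 and -0.39. *smedwi-1* fell by 0.38 in *activin-2* RNAi (SE 0.0775, adjusted p = 0.00831), while in control its difference was -0.22 ± 0.0842 (adjusted p = 0.0742). Whether the arms differ in this was not tested. wi-2 and WI-3 were called in neither arm.

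In control, 23 of 75 members were called between labelled 24 and 0 hpa (23.5% of all contigs, 11.6% higher and 11.9% lower), 14 higher and 9 lower, and in *activin-2* RNAi 15 of 74 (12.8% of all contigs, 6.01% higher and 6.82% lower), 5 higher and 10 lower. The 5 that rose in *activin-2* RNAi all rose in control, and were 35.7% of the control rises. A further 6 fell in both arms, 66.7% of the control falls and 60% of those in *activin-2* RNAi, and none was called in opposite directions. The 5 were matched to DDX5 (dd_10179), DDX17 (dd_6709), DDX43 (dd_596), DDX54 (dd_3250) and DDX58 (dd_3742). DDX54, matched to a nucleolar helicase, stood at 101, 94.2 and 89.4 RPM at labelled 0 and 146, 144 and 134 at labelled 24 hpa in control, and at 122, 108 and 101 against 132, 140.3 and 145 in *activin-2* RNAi. The other 4 that fell in both, beside the Vasa pair, were TDRD1 and the DDX6, DDX17 and DDX3X matches dd_1034, dd_3743 and dd_3817. The 2 DDX17 contigs thus moved in opposite directions in both arms. Of the DEAH-box members, 4 rose in control, matched to DHX38 (dd_1945), DHX15 (dd_2043) and DHX8 (dd_7940 and dd_9191), and 2 fell, matched to DHX9 (dd_12085) and DHX33 (dd_16988). DHX38, matched to a splicing helicase, rose by 0.56 ± 0.0947 (adjusted p = 0.0014), from 114, 117 and 97.8 to 171, 167 and 151 RPM, and was not called in *activin-2* RNAi.

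**Figure D5:**
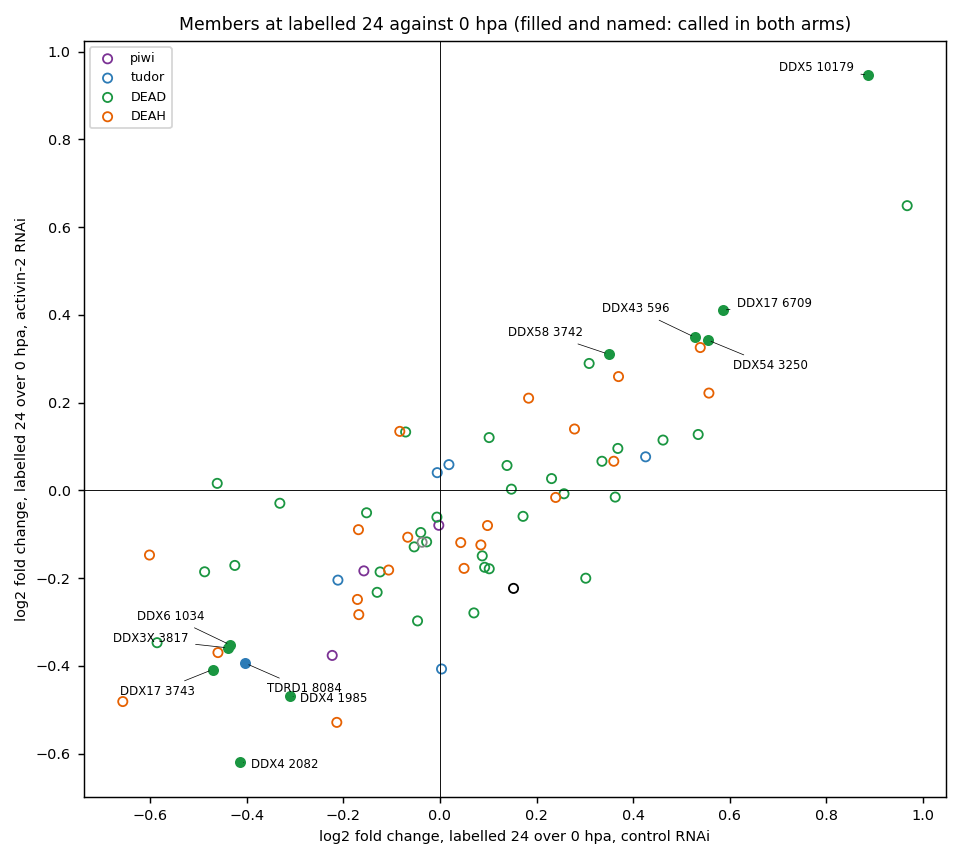
Log2 fold change between labelled 24 and 0 hpa in control RNAi (x axis) and *activin-2* RNAi (y axis) for the 74 members tested in both, by family, with filled and named points for the 11 called in both arms. The 5 that rose in both arms lie at upper right and the 6 that fell at lower left.

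These counts moved with the scaling and with single libraries. Scaled by library size only, the control comparison called 8 higher and 19 lower and the median of all contigs moved to -0.20. Changes in it are therefore relative to the TMM scale, on which the median of all contigs is -0.03. Control calls fell to 15 without control 0 hpa replicate 3 and 14 without control 24 hpa replicate 2. Those of *activin-2* RNAi fell to 9 without its 0 hpa replicate 3, and to 8 or 5 without its 24 hpa replicate 2 or 3. Wound-induced transcripts were lower at labelled 24 than 0 hpa in both arms, with 77 and 74 of the 125 and 124 tested called lower, and the part of this difference in these results was not tested.

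Between labelled 48 and 0 hpa, 8 of 75 members were called in control (11.0% of all contigs, 5.58% higher and 5.39% lower), 6 higher and 2 lower. Of these, the largest rise was that of the DDX5 contig dd_3816, from 55.6, 44.6 and 52.02 to 78.4, 78.2 and 77.6 RPM (0.60 ± 0.0869, adjusted p = 0.00106), and the largest fall that of the DDX3X contig dd_3817, from 105, 84.5 and 104 to 65.9, 70.1 and 74.9 RPM (-0.49 ± 0.0942, adjusted p = 0.00569). Library size only gave 1 higher and 9 lower, with the median of all contigs at -0.14. Without control 0 hpa replicate 3 or control 48 hpa replicates 1, 2 or 3 there were 3, 3, 2 or 4 calls. In *activin-2* RNAi 0 of 74 tested members were called (1.07% of all contigs), with 5 at an unadjusted p under 0.05 and 0 by DESeq2. A pairing of same-numbered libraries in that comparison was taken from the data, and no label states it. With the replicate block 2 members rose and 1 fell there. Without activin-2 RNAi 48 hpa replicate 2 the unblocked test called 5.

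Genes listed by description as partners of these proteins, and other markers of dividing cells, were described in the same way. Over the 6 conditions, 16 of 33 tested contigs of the partner list were called (48.5%, against 27.8% of all contigs). Of these, 13 were higher and 3 lower, and the median of the list was 0.10. Its descriptions included argonaute, dicer, exportin 5 and arginine methyltransferase, but also CUGBP, bruno, musashi, mex-3 and LSM. The share is therefore not that of small RNA genes alone. Helicase, Piwi and Tudor family contigs outside the 75 gave 22 of 53 (41.5%), 17 higher and 5 lower (median 0.07). Of 32 tested proliferation contigs (MCM, cyclin, aurora and polo kinase matches) 15 were called (46.9%), 14 higher and 1 lower (median 0.09). Of 404 neoblast-annotated contigs 104 were called (25.7%, below the share of all contigs), 66 higher and 38 lower (median 0.07). By direction, 12.1% of all contigs were called higher and 15.7% lower. Neoblast contigs were thus more often called higher than lower, and all contigs more often lower. Muscle-annotated contigs gave 108 higher and 213 lower of 897, neural contigs 30 and 76 of 279, gut contigs 147 and 214 of 850, and all 4 pharynx contigs were higher (median 3.02). The part of these lists in the results for the members was not tested. Between labelled 24 and 0 hpa, 9 of 31 tested proliferation contigs fell and 2 rose in control, and 11 of 30 fell and 2 rose in *activin-2* RNAi, where 11.9% and 6.82% of all contigs fell and 11.6% and 6.01% rose. Neoblast contigs gave 55 lower and 28 higher of 361 in control and 58 lower and 12 higher of 367 in *activin-2* RNAi.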

How the data were processed

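Wound RNA of 40 libraries in 12 groups was sequenced with a stranded mRNA kit. The authors mapped reads with Bowtie to the dd_Smed_v6 transcriptome, counted them with bedtools and summed isotigs, and the deposited table holds raw counts per contig (CASAVA 1.9, cutadapt 1.8, Bowtie 1.2 and SAMtools 1.6 per the labels). A deposited comparison table supplied the annotation, a text field of another kind. Its columns of fold changes and adjusted p-values were not used. No column without a sample was found.

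The count model was the quasi-likelihood test of edgeR 4.0.16 in R 4.3.3 (TMM, filterByExpr with a minimum count of 10 and total of 15, prior count 0.125), on the 2 groups compared, the 4 groups at 18 hpa, or all 12. P-values were adjusted over all contigs tested by Benjamini-Hochberg, and the threshold for a call was 0.05. SE is the log2 fold change divided by the root of F. Levels are counts per 1000000 of TMM-scaled library size. Fits were tested on simulated data. Replicates were compared pairwise and none differed by as little as sampling noise.

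The members and lists were chosen with earlier results of these data known. Named genes were all Piwi, pumilio, nanos and DDX4 members, the 5 most abundant of the Tudor, DEAD and DEAH classes, and the largest called rise and fall without overlap in each comparison, 29 in all. A further 18 were named after their values were seen. Alternatives were DESeq2 1.42.0, RLE, library size only, no filter, no minimum sum, a replicate block, 1 fit of 12 groups, each library left out, and, added after seeing the data, the mean without 18 hpa.

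Deviations of same-numbered libraries correlated over 0.1 in all 3 pairs only for *activin-2* RNAi 48 against 0 hpa (0.175, 0.214 and 0.15), so the pairing there comes from the data and no label states it.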

Additional observations from a re-analysis of the deposited data

Results flagged for a closer look

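In 188 groups of 4 libraries checked for the 47 named genes, 9 values stood apart from the other libraries of their group (Dixon's test at the 95% level, which flags about 5% of groups by chance). In the anterior-facing wounds labelled *activin-2* RNAi at 18 hpa, 1 library stood above the others for wi-2 (dd_756, 1736 RPM against 1557 to 1567), the DHX8 contigs dd_8181 (99.1 against 82.8 to 84.9) and dd_8001 (53.1 against 50.4 to 50.8), and the DDX54 contig dd_3250 (101 against 96.0 to 96.2). In the posterior-facing wounds labelled *activin-2* RNAi, 1 library was low for SND1 (dd_906, 631 against 692 to 702) and the DDX3X contig dd_3817 (83.5 against 87.6 to 87.8), and 1 was high for the DDX3Y contig dd_799 (282 against 259 to 262). In posterior-facing control wounds 1 library was low for DDX43 (dd_596, 615 against 646 to 650) and 1 was high for DHX9 (dd_12085, 14.9 against 13.1 to 13.3).

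The difference between the labelled arms varied among the 6 labelled conditions for the DHX15 contig dd_5858 (edgeR adjusted p = 0.0465) and the DDX18 contig dd_10133 (edgeR adjusted p = 0.0328).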

How the results depend on the processing

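Of 87 results for named genes, 1861 values under the alternatives were computed and 0 changed sign, among them 1340 with 1 library left out, of which 140 lost the call. DESeq2 called 3 members between the arms at labelled 0 hpa, 1 at anterior-facing wounds of 18 hpa, 2 at 48 hpa, 10 between control 6 and 0 hpa, and 8 for a difference of the effect among conditions. Library size only gave 18 at 24 hpa, 1 at 48 hpa and 10 for the difference among conditions, and RLE gave 1 for the last. Without a filter on low counts these were 1 at 0 hpa, 1 at anterior-facing wounds, 5 at 24 hpa, 1 at 48 hpa, 8 for control 6 against 0 hpa and 0 among conditions. With all 12 groups in 1 fit the arms gave 6 at 0 hpa, 1 at 6 hpa, 1 at anterior-facing wounds, 6 at 24 hpa and 7 at 48 hpa, the orientations in *activin-2* RNAi 4, control 6 against 0 hpa 12, and *activin-2* RNAi 6 and 48 against 0 hpa 1 and 4. The cause of these changes was not tested. With the replicate block, the arms gave 2 at anterior-facing wounds and 5 at 24 hpa, the orientations in *activin-2* RNAi 3, and *activin-2* RNAi 48 against 0 hpa 3. Only in the last did deviations of same-numbered libraries correlate over 0.1 in all 3 pairs, and no label states a pairing. Elsewhere the numbers are a shared number. The block moved no other count of members by over 1.5 times.

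With 1 library left out, the arms gave 0 to 1 call at 0 hpa, 0 at 6 hpa, 0 to 1 at anterior-facing and 3 to 8 at posterior-facing wounds of 18 hpa, 0 to 7 at 24 hpa and 0 to 10 at 48 hpa. The orientations gave 3 to 8 in each arm and their interaction 0. Against 0 hpa, control gave 0 to 2 at 6 hpa, 14 to 25 at 24 hpa and 2 to 11 at 48 hpa, and *activin-2* RNAi 0 to 6, 5 to 14 and 0 to 5. The mean effect gave 25 to 30 and the difference among conditions 0 to 8. Without the minimum sum, 27 members were called in the mean effect. The shallowest library had 2524235 reads, where 1 read was 0.396 RPM, so that contigs near 1 RPM, such as dd_11802, rested on few reads in it.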

Other observations

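The 16 libraries labelled 18 hpa stood apart from the other 24 for 5 members. Every 18 hpa library was above every other library for the DDX5 contigs dd_3816 (122.6 to 170 RPM against 28.1 to 110) and dd_10179 (17.03 to 24.97 against 3.66 to 14.6), the DHX8 contig dd_12329 (21.9 to 46.1 against 11.7 to 21.8) and the DDX58 contig dd_3742 (117 to 162 against 70.5 to 116). Every 18 hpa library was below every other for the DDX3Y contig dd_799 (238 to 284 against 288 to 427). Over the 18350 contigs tested, 2.08% were above and 0.959% below in the same way. Medians of the 2 DDX5 contigs were 141 and 21.8 RPM at 18 hpa against 75.7 and 9.85 in the other libraries. Both wound orientations and both arms are in these ranges, and time and a batch cannot be told apart here.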
